A study of Rattus norvegicus with 8 samples.

Results

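The slow-fibre contractile genes are 9 genes whose proteins build and switch the sarcomere of slow muscle fibres: Myh7, Tnnt1, Tnnc1, Tnni1, Myl2, Myl3, Tpm3, Atp2a2 and Myoz2. They were found by platform gene symbol among the 13337 genes named on the array, which gave 10 of its 22523 probes, 2 of them for Tpm3 and 1 for each other gene. Their transcripts were measured in thigh (femoris) skeletal muscle of 8 Wistar Han rats on Illumina bead arrays, 1 array per rat. The control group was 4 rats on standard laboratory chow, and the treated group was 4 rats whose chow held 150 ppm of the sulfonyl isoxazoline (SI) compound 177, both for 28 days. The series title places the study in xenobiotic mitochondrial toxicity of muscle, and no age, sex or fibre composition of the muscle piece is given in the sources used here.

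Slow (type I) fibres contract slowly, resist fatigue and live mainly on oxidative metabolism. They carry their own isoforms of most sarcomere proteins, so that a slow fibre and a fast fibre differ in which gene of a family is used rather than in the machine itself. The rat thigh is mainly fast muscle, and slow fibres gather in its deep parts. Several slow isoforms, among them Myl2, Myl3, Tnnc1 and Atp2a2, are also the forms of the heart ventricle. Myh7 is made in the ventricle too, where the adult rat uses mainly Myh6, whereas Tnnt1 and Tnni1 are the slow skeletal forms of troponin.

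Levels below are log2 intensities after background correction and quantile normalization, and differences are compound 177 minus control on that scale. The median array intensity ran from 97.5 to 124.7, the highest intensity on an array from 42838 to 59774, and the number of probes with a detection p below 0.05 from 9261 to 10620. Skeletal muscle markers were present throughout: Ckm, Acta1, Myot, Des and Mb were detected on all 8 arrays and differed between the groups by -0.16 to 0.12. Their group means, from 14.98 (Mb, control) to 15.57 (Acta1, treated), lay near the top of the intensity scale. How far the end of the scale bounds these differences was not tested. Of the 10 slow-fibre probes, 9 were detected on all 8 arrays, and they represent all 9 genes. The second Tpm3 probe (ILMN_1363774) was detected on 2 control and 0 treated arrays and was not tested. Per array numbers 1 to 4, its levels were 5.13, 4.97, 5.41 and 5.74 in control and 5.08, 4.84, 5.05 and 5.21 in treated muscle, all near background.

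Mean levels of all 9 slow-fibre genes were lower in rats fed compound 177 than in controls, with differences from -0.36 (Myl3) to -1.80 (Tnnt1) on the log2 scale and a median of -1.13. Over all 10212 probes tested the median difference was 0.01, and 46.6% of probes had a lower mean. For 6 of the 9 genes the difference was larger than 1 in the lower direction, as it was for 0.255% of all probes. None of the 9 differences passed the test: limma gave an adjusted p of 0.9999 for each, and 0 probes of the whole array passed (0% in either direction). At an unadjusted p below 0.05, 396 probes of the array passed, 231 higher and 165 lower. Among the 9 genes Myh7 and Tpm3 had such a p in the lower direction, as had 1.62% of all probes, and 0 of the 9 had one in the higher direction (2.26% of all probes). Compound 177 replicate 1 lay above control replicate 1 for every gene of the 9, so that their groups overlapped, whereas all treated arrays lay below all controls for 0.705% of all probes and above them for 1.7%. The labels were used as given, and whether the labelling or the tissue sampling of the 2 arrays numbered 1 played a part was not tested. Without control replicate 1 the median difference of the 9 genes was -1.56, and without compound 177 replicate 1 it was -1.57. Leaving out any other single array made it smaller, at -0.942 to -1.06. Fewer slow fibres and less slow-fibre RNA per fibre cannot be told apart in such whole-tissue samples.

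Of the 3 myosin genes, Myh7 encodes the slow myosin heavy chain, the motor of the thick filament. Its level in control replicates 1 to 4 was 12.76, 14.95, 14.69 and 14.95, and in compound 177 replicates 1 to 4 it was 14.91, 12.04, 11.47 and 12.10. Control replicate 1 thus stood near the low treated arrays, and compound 177 replicate 1 stood among the high controls. In the deposited intensities, Myh7 ran from 8326 in control replicate 1 to 31471 in control replicate 4, and from 2893 in compound 177 replicate 3 to 39387 in compound 177 replicate 1. The control mean was 14.34 ± 1.06 and the treated mean 12.63 ± 1.55 (SD, n = 4), a difference of -1.71 (SE 0.75, 95% confidence interval -3.40 to -0.02; limma adjusted p = 0.9999). This is 3.27-fold lower by the means.

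Myl2 encodes the regulatory light chain that sits on the neck of slow and ventricular myosin. It was the dimmest of the tested members, at 5.98, 8.01, 7.80 and 8.49 in control and 7.83, 6.16, 6.14 and 6.01 in treated replicates 1 to 4. Here control replicate 1 was the lowest of all 8 arrays. The difference was -1.03 (SE 0.57), or -0.636 without background correction. Leaving out 1 array at a time, it ran from -1.56 without control replicate 1 to -0.724 without control replicate 4. Myl3, the essential light chain of the same myosin, behaved less uniformly. Its levels were 12.63, 14.77, 14.29 and 14.36 in control and 14.78, 13.93, 11.96 and 13.95 in treated muscle. Treated replicates 2 and 4 lay closer to control replicates 3 and 4 for Myl3 than they did for Myh7. The difference of Myl3 was -0.36 (SE 0.62). It was -0.822 without control replicate 1, -0.736 without compound 177 replicate 1 and -0.108 without control replicate 2, and it turned to 0.206 without compound 177 replicate 3.

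The 3 troponin subunits form the calcium switch of the thin filament. Tnnt1, slow troponin T, anchors the complex to tropomyosin. Its levels were 9.46, 11.85, 12.11 and 12.66 in control and 11.92, 8.80, 8.57 and 9.59 in treated replicates 1 to 4. The group means were 11.52 ± 1.41 and 9.72 ± 1.53 (SD, n = 4), which gave -1.80 (SE 0.84, 95% confidence interval -3.68 to 0.08; limma adjusted p = 0.9999) and a 3.49-fold lower mean.

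Tnnc1, the calcium-binding subunit of slow and cardiac muscle, was at 10.30, 12.37, 12.47 and 13.09 in control and 12.70, 9.53, 9.28 and 10.58 in treated muscle. Its difference was -1.54 (SE 0.79), and compound 177 replicate 4 lay above control replicate 1. Tnni1, the inhibitory subunit of slow fibres, was at 7.62, 10.10, 9.89 and 10.92 in control and 10.23, 7.31, 7.37 and 7.62 in treated muscle, a difference of -1.50 (SE 0.80). For Tnni1 control replicate 1 and compound 177 replicate 4 had practically the same level.

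Tpm3 encodes the tropomyosin of slow fibres and, through other transcripts, non-muscle tropomyosins. The platform annotation ties its 2 probes to different transcript records and does not say which is the muscle form. The tested probe (ILMN_1649963) was at 8.29, 8.89, 8.68 and 8.80 in control and 8.49, 7.66, 7.91 and 7.95 in treated muscle. It varied least among the 9 genes, over 1.23 on all 8 arrays, and its groups overlapped only through control replicate 1 and compound 177 replicate 1. The difference of -0.66 (SE 0.20) had the smallest unadjusted p of the 9 genes, at 0.0075 (limma), with an adjusted p of 0.9999.

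Atp2a2 encodes SERCA2, the pump that returns calcium to the sarcoplasmic reticulum in slow fibres and heart. Its levels were 12.75, 14.59, 14.26 and 14.62 in control and 14.24, 12.61, 12.37 and 12.48 in treated muscle. The means of 14.05 ± 0.88 and 12.92 ± 0.88 (SD, n = 4) differed by -1.13 (SE 0.51, 95% confidence interval -2.27 to 0.005). Myoz2 encodes myozenin 2, or calsarcin-1, a Z-disc protein of slow fibres and heart that binds calcineurin. It was at 11.93, 13.58, 13.26 and 14.12 in control and 13.53, 12.59, 12.55 and 12.67 in treated muscle. Control replicate 1 was the lowest array and control replicate 4 the highest, so that the treated values lay inside the control range. The difference of Myoz2 was -0.39 (SE 0.43), and it was -0.817 without control replicate 1, -0.618 without compound 177 replicate 1 and -0.085 without control replicate 4.

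**Figure D1:**
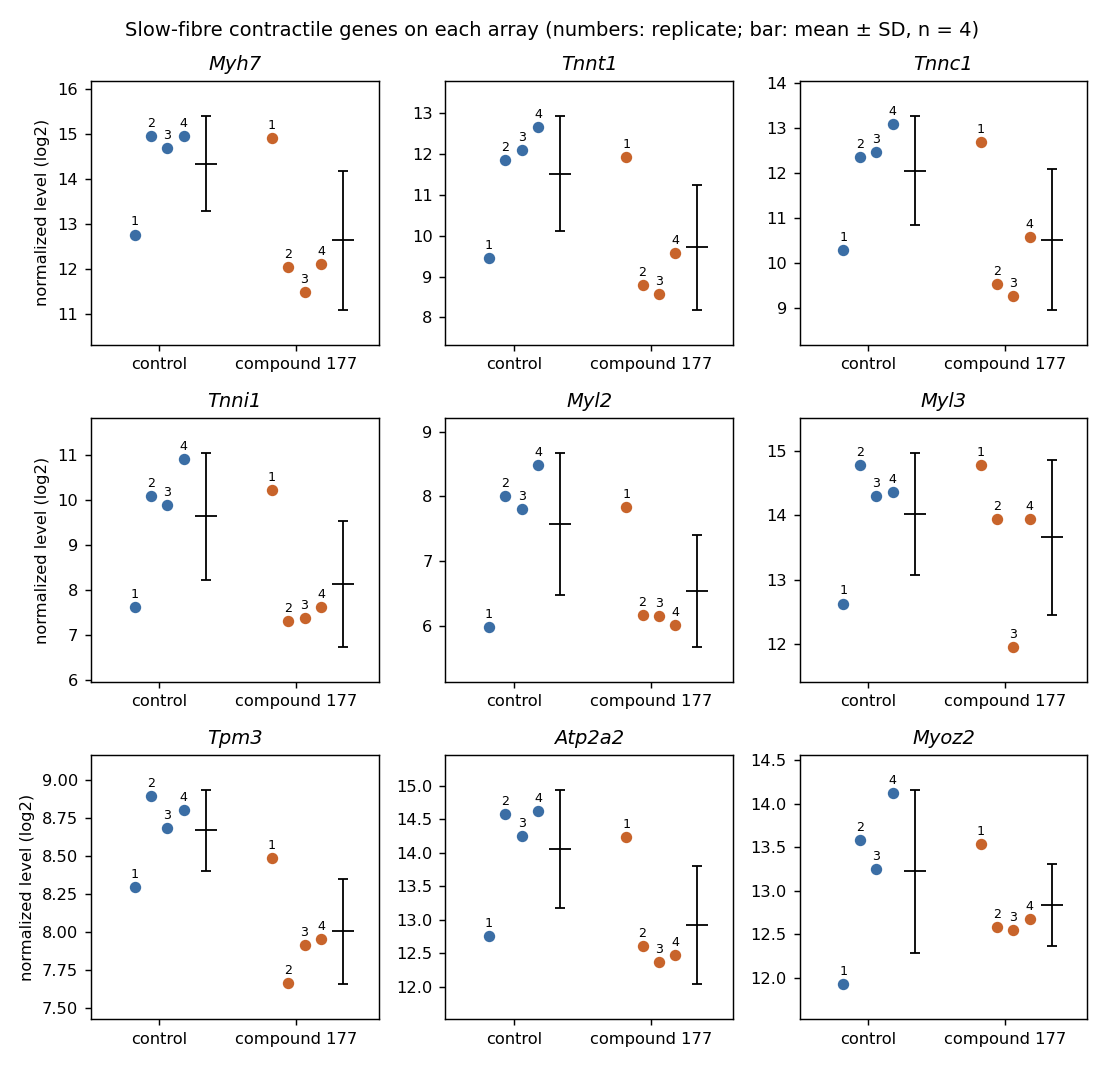
Normalized level (log2) of the 9 slow-fibre contractile genes, 1 panel per gene, for control and compound 177 arrays; points carry the replicate number, and the black bar is the mean ± SD (n = 4). In every panel control replicate 1 is the lowest control and compound 177 replicate 1 the highest treated array.

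The wide spread within groups was common to the genes. The pooled SD within groups was 0.738 to 1.47 for the 8 genes other than Tpm3, where the median over all tested probes was 0.224, and 0.309 for Tpm3. For the same 8 genes the levels on the 8 arrays ranged over more than 2, as they did for 2.59% of all probes. Control replicate 1 was the lowest control and compound 177 replicate 1 the highest treated array for all 9 genes, a combination seen in 3.34% of all probes (19.4% for the control array alone and 20% for the treated array alone). Treated replicates 2, 3 and 4 were all below control replicates 2, 3 and 4 for all 9 genes, and for 3.33% of all probes. These shares were read after the values had been seen and describe the arrays only. The genes were high and low on the same arrays. The correlation of each gene with the standardised mean of the other 8, over the 8 arrays, was 0.753 for Myl3, 0.883 for Tpm3, 0.889 for Myoz2 and 0.976 to 0.989 for the remaining 6. The arrays fall apart into high and low levels, and how much of each coefficient that split makes up was not tested.

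Promoter windows of the genes were compared because the genes varied together over the arrays, and their sequences are shown for that reason. RefSeq windows on build GRCr8 were matched by symbol for 7 of the 9 genes, 9 windows in all, and Myl2 and Tnnc1 had none. The 250 bases before each start site were searched on both strands for the MEF2 box, the MCAT element CATTCC, the CArG box, the E-box CANNTG and the TATA box TATAAA. These are letters that the factors MEF2, TEAD, SRF, the myogenic factors and TBP are known to prefer. The E-box was in at least 1 window of all 7 genes. Counted by window it was in 7 of the 9, and in 65.5% of all 33356 windows. Each other motif was in the window of 1 gene: the MEF2 box in Myoz2 (2.97% of all windows), the MCAT element and the CArG box in Myl3 (12.1% and 1.5%) and the TATA box in Tnnt1 (12.9%). No motif other than the E-box was shared by a pair of the genes. A match describes the letters and not a bound site. The 3 windows with such matches follow, each ending at the base before the start site, with the matches in capitals. They are Tnnt1 (chr1:78348785-78349034, plus strand), Myl3 (chr8:119616844-119617093, plus strand) and Myoz2 (chr2:213852779-213853028, minus strand).
Tnnt1: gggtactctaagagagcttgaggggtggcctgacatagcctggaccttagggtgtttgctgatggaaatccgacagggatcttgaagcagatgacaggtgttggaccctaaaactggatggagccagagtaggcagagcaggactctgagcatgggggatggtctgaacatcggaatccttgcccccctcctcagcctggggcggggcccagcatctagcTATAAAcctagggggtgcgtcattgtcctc
Myl3: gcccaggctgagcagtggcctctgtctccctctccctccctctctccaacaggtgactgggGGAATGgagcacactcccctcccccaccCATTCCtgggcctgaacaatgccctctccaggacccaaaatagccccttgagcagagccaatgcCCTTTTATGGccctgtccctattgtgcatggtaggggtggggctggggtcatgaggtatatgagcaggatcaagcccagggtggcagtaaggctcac
Myoz2: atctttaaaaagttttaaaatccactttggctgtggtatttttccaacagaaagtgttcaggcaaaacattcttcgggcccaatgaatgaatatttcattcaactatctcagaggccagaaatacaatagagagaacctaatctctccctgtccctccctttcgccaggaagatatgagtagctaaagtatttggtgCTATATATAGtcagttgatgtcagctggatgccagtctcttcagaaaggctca

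In Tnnt1 the TATA box opens 30 bases before the start site. In Myl3 2 MCAT elements, on opposite strands, open 189 and 161 bases before it and the CArG box 97 bases before it. In Myoz2 the MEF2 box opens 53 bases before it. The Atp2a2 window held 80% G and C against a median of 51.6% over all windows, and that of Myoz2 39.6%. The Myh7 window lies at a start site 1657 bases inside the gene model, and those of Tpm3 2349 to 8873 bases inside, so these do not show the outermost promoter.

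The authors' normalized values fall into 2 sets of 4 arrays, and the replicate numbers 1 and 2 of both groups make set 1 and the numbers 3 and 4 set 2. What the sets stand for is not given in the sources used here. In set 2 both treated arrays were below both controls for all 9 genes (14.3% of all probes), and in set 1 for 0 of the 9 (15.6% of all probes). Within set 1 and set 2 the difference was -0.30 and -3.31 for Tnnt1, -0.22 and -2.85 for Tnnc1, and -0.09 and -2.91 for Tnni1. For Myh7 it was -0.38 and -3.04, and for Atp2a2 -0.25 and -2.01. For Myl2 it was 0.002 and -2.06, for Myl3 0.66 and -1.38, and for Myoz2 0.31 and -1.08. The tested Tpm3 probe differed least between the sets, at -0.52 and -0.81. The test of the change between sets (limma interaction of treatment and set) was not passed by any of the 9 genes, at an adjusted p of 0.9996 each, nor by any probe of the array (0%). At an unadjusted p below 0.05 with the more negative difference in set 2 there were 0 of the 9 genes and 1.89% of all probes. For Tnnt1 the change was -3.01 (SE 1.52).

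Compared by replicate number, the difference ran opposite ways. Between the arrays numbered 1 it was above 0 for all 9 genes, from 0.19 for Tpm3 to 2.60 for Tnni1. Between the arrays numbered 2, 3 and 4 it was below 0 for all 9 genes. For Myh7 the 4 differences were 2.15, -2.91, -3.22 and -2.86. For Tnnt1 they were 2.46, -3.05, -3.54 and -3.08, so the numbers 2 to 4 lay close together in both genes. With Myl3 they spread more, at 2.15, -0.84, -2.34 and -0.42. Without any 1 of the other 6 arrays the median difference of the 9 genes was -0.942 to -1.06.

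**Figure D2:**
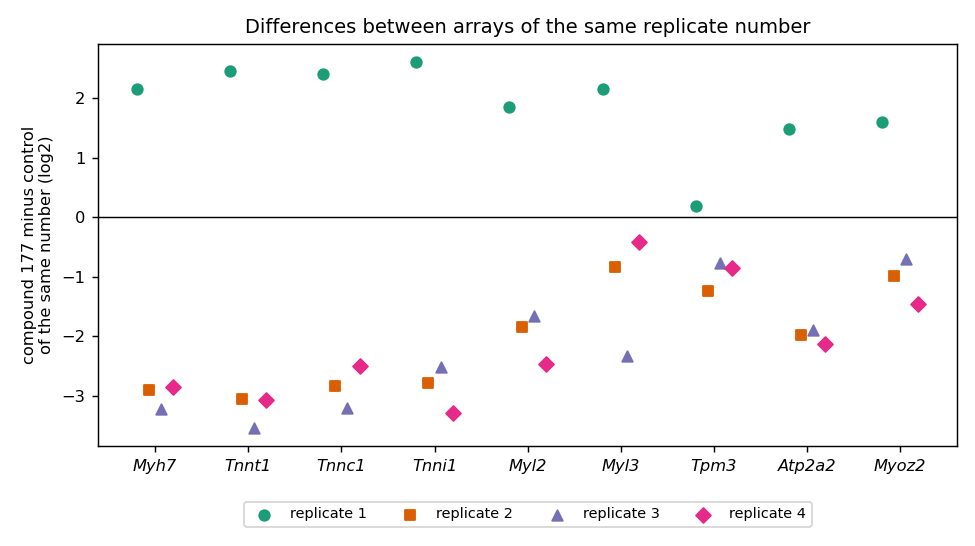
Difference in level (log2) between the compound 177 and the control array of the same replicate number, for each of the 9 genes; each symbol is 1 replicate number. The arrays numbered 1 lie above 0 in all genes, and the other numbers lie below 0.

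Heart muscle markers also differed between arrays, and the heart shares several of the 9 genes. Myh6, the fast myosin heavy chain of heart, was at 10.17, 12.25, 6.51 and 8.04 in control and 8.12, 8.16, 7.40 and 5.41 in treated muscle. Tnni3, cardiac troponin I, was at 8.22, 10.47, 5.0 and 5.32 in control and 5.64, 5.73, 5.06 and 5.23 in treated muscle, and was detected on 2 arrays of each group. Control replicates 1 and 2 thus stood high for both heart genes. Of the 7 heart markers with a probe, 3 were tested (Myh6, Tnni3 and Nppb), and all 3 had lower treated means (median -1.84). Nppb was detected on 4 control and 2 treated arrays, so that 2 of the 3 genes lay partly at background in treated muscle and the median is uncertain in size. Of the 4 heart markers not tested, Nppa and Mybpc3 were each detected on 1 control and 0 treated arrays, Myl7 on 1 control and 2 treated arrays, and Ryr2, by any of its 4 probes, on 1 control and 3 treated arrays. The summed level of the 3 tested genes, on the linear scale, was 1491 and 6330 in control replicates 1 and 2, 167.4 and 354.9 in control replicates 3 and 4, and 122.2 to 383.3 in treated muscle.

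Control replicate 2, highest for heart markers, was high for the slow-fibre genes (mean deviation 1.01 from their means over all arrays). Control replicate 1 was next for heart markers and low for the slow-fibre genes (-0.92). It was the control with the lowest Myh7, Tnnt1 and Tnni1. On the 4 arrays of set 2, Tnni3 was detected on 0, whereas Myh6 and Nppb were detected on all 4. The differences of the slow-fibre genes within set 2 are given above. Without control replicate 2 the median difference of the 9 genes was -0.953. The part of heart transcripts in the level of Myh7, Myl2, Myl3, Tnnc1, Atp2a2 and Myoz2 on control replicates 1 and 2 was not tested.

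**Figure D3:**
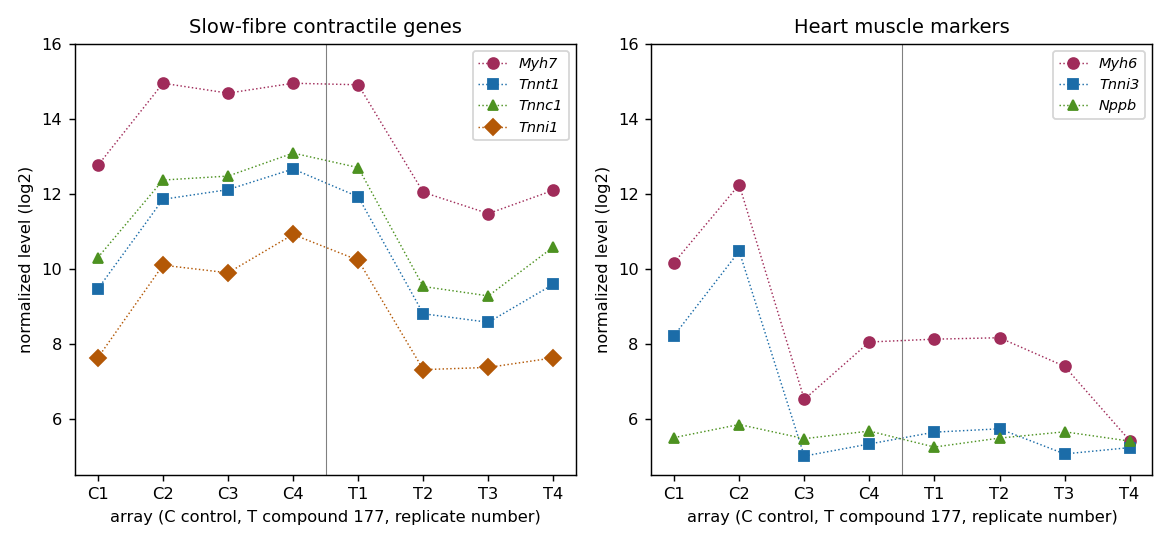
Normalized level (log2) on each array (C control, T compound 177, with the replicate number) of 4 slow-fibre genes (left) and 3 heart muscle markers (right); dotted lines join the arrays of 1 gene for reading only. Myh6 and Tnni3 are highest on C2 and C1. The slow-fibre genes are high on C2, C3, C4 and T1 and low on C1, T2, T3 and T4.

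Connective tissue markers were lower in treated muscle on average too. All 8 tested markers of fibroblasts and tendon had lower treated means (median -0.69). Their summed linear level ran from 35890 to 79860 in control and from 19860 to 78670 in treated muscle, and all 8 were detected on all arrays. The mean deviation of this list from its mean over the 8 arrays was 0.73, 0.73, 0.47 and -0.57 in control replicates 1 to 4. In treated replicates 1 to 4 it was 0.90, -1.14, 0.27 and -1.39. For the slow-fibre genes the same measure was -0.92, 1.01, 0.83 and 1.33 in control replicates 1 to 4. In treated replicates 1 to 4 it was 0.96, -1.04, -1.38 and -0.78. All 3 tested macrophage markers had lower treated means as well (median -0.39), at a summed level of 738.3 to 1235 in control and 355.4 to 1091 in treated muscle. Both tested nerve and Schwann cell markers had lower treated means (median -0.37), with sums of 134.4 to 186.5 and 80.02 to 183.8. Of these markers S100b was detected on 4 control and 2 treated arrays and Mbp on 4 and 3, and among the macrophage markers Cd163 on 4 and 2, so they passed the filter through the group where they were higher. The medians were 0.05 for 2 endothelial, -0.02 for 3 smooth muscle, -0.17 for 4 adipocyte and -0.09 for 2 erythroid markers. Of 3 tested genes of embryonic or denervated muscle 2 were lower (median -0.52), and Pax7 and Ncam1 were detected on 0 arrays. That median is the difference of Chrna1, which was detected on 4 control and 2 treated arrays, so it is uncertain in size. None of these markers passed the test, and their part in the slow-fibre differences was not tested.

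The tested fast-fibre genes, among them fast counterparts of several of the same proteins, had far smaller differences. No probe carried the symbol Myh1, Mylpf, Atp2a1, Casq1 or Myoz3, and 8730 probes of the array had no symbol. The fast relatives of Myl2 and Atp2a2 could therefore not be examined by name. Of 16 listed fast-fibre genes 11 were tested, and 9 of them were lower and 2 higher, with a median of -0.04 and a range of -0.29 to 0.10. With median scaling in place of quantile normalization this median was 0.004. None passed the test (limma adjusted p = 0.9999 for each), and 0 had an unadjusted p below 0.05. Myh4, the fastest myosin heavy chain, differed by -0.29 (SE 0.26), Pvalb, the calcium buffer of fast fibres, by -0.13 (SE 0.16), and Myh2, the myosin of fast oxidative fibres, by 0.10 (SE 0.17). Among fast troponins Tnnt3 differed by -0.08 (SE 0.12), Tnni2 by -0.11 (SE 0.11) and Tnnc2 by -0.01 (SE 0.10). Myl1 differed by -0.02, Tpm1 by -0.02 and Myoz1, the fast relative of Myoz2, by -0.07. The 95% confidence interval of Tnnc2 ran from -0.23 to 0.21, and that of its slow relative Tnnc1 from -3.32 to 0.25. All these fast genes but Myh2 lay near the top of the intensity scale, at mean levels above 14, and how far the end of the scale bounds their differences was not tested. Myh7, Atp2a2 and Myl3 reached the same levels on their high arrays, and for Myh7 control replicates 2 and 4 received an equal normalized value from intensities of 20856 and 31471.

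**Figure D4:**
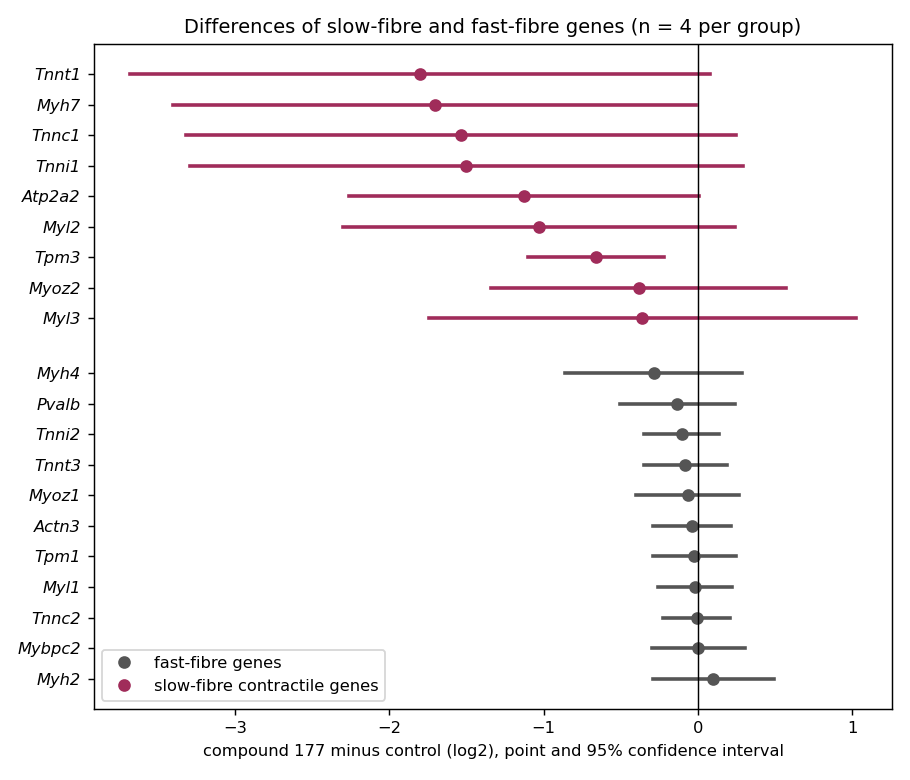
Difference compound 177 minus control (log2) with its 95% confidence interval (limma, n = 4 per group) for the 9 slow-fibre contractile genes and the 11 tested fast-fibre genes. The slow-fibre points lie between -1.80 and -0.36 with wide intervals, and the fast-fibre points between -0.29 and 0.10 with narrow ones.

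Other genes of the slow programme were divided in direction. Of 18 such genes 11 were tested, with 6 lower and 5 higher, and the median was -0.07. Within sets 1 and 2 it was 0.22 and -0.30. The smallest p belonged to Myh7b, a slow-type myosin heavy chain related to Myh7. It was at 5.80, 6.06, 6.56 and 6.56 in control and 5.98, 5.49, 5.27 and 5.14 in treated muscle, and it was detected on 4 control arrays but on 1 treated array. Its difference of -0.77 (SE 0.23; limma adjusted p = 0.9999) is therefore uncertain in size. Csrp3, the Z-disc muscle LIM protein of slow fibres and heart, had a difference of -1.0 (SE 0.47), which was -1.58 for set 1 and -0.42 for set 2, the reverse of the order seen in the 9 genes. Cryab, a small heat shock protein rich in oxidative fibres, differed by -0.28 (SE 0.17). Myoglobin (Mb), the oxygen store of oxidative fibres, differed by 0.12 (SE 0.16) and Fabp3, their fatty acid binding protein, by 0.28 (SE 0.22).

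Regulators of fibre type were examined from a list of 26, of which 15 were tested, 10 lower and 5 higher, with a median of -0.12 and 0 at an unadjusted p below 0.05. Myog, the myogenic factor myogenin, differed by -0.35 (SE 0.16), and Sox6, a repressor of slow-fibre genes, by -0.32 (SE 0.15). Nfatc3, a calcineurin-dependent factor, differed by -0.19 (SE 0.12). For Sox6 the values were 9.75, 9.85, 9.69 and 9.24 in control and 9.16, 9.33, 9.35 and 9.42 in treated replicates 1 to 4. Control replicates 1, 2 and 3 were thus the higher arrays for Sox6, control replicate 4 lay among the treated values, and compound 177 replicate 1 was the lowest.

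Among the 7290 other named genes tested, those most like the standardised mean of the 9 genes over the 8 arrays were Resp18 (Pearson r = 0.964), Ift81 (0.939), Car3 (0.916), Myh3 (0.911), Ppp2ca (0.907), Bclaf1 (0.90), Tmem37 (0.890), Nr3c1 (0.883), Scn7a (0.878) and Emx2 (0.870). They were picked for these values, so no test applies, and the part of the split of the arrays in each coefficient was not tested. By rank (Spearman) their coefficients ran from 0.643 for Resp18 to 0.905 for Ppp2ca, with 0.690 for Myh3, so the order depends on the measure. The size of their differences was mostly small: Ppp2ca, a catalytic subunit of protein phosphatase 2A, ranged from 12.96 to 13.39, and Resp18 lay near background, from 5.16 to 5.61. Tmem37 (5.34 to 6.04) and Nr3c1 (5.46 to 6.44) were low on the scale too. Myh3, the embryonic myosin heavy chain, came closest to the 9 genes in size. It was at 6.83, 9.40, 8.94 and 8.14 in control and 8.29, 6.06, 5.81 and 5.66 in treated replicates 1 to 4, a difference of -1.87 (SE 0.67). Car3, a carbonic anhydrase abundant in slow fibres, was at 14.84, 15.37, 15.33 and 15.18 in control and 15.31, 14.71, 14.38 and 14.47 in treated muscle, with the same arrays high and low. The genes that ran most against the mean were Abra (r = -0.967), Slc26a3 (-0.942), Ints12 (-0.938), Exosc5 (-0.920) and Psmg2 (-0.915). By rank they ran from -0.643 for Exosc5 to -0.929 for Slc26a3, with -0.707 for Abra. Slc26a3 lay near background, from 5.24 to 5.64. Abra, an actin-binding protein of muscle, was at 14.38, 13.96, 13.89 and 13.76 in control and 13.86, 14.38, 14.33 and 14.39 in treated muscle.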

How the data were processed

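Total RNA of thigh muscle was amplified to biotinylated cRNA and hybridised to Illumina rat arrays, per the labels' protocols. The authors' deposited non-normalized table holds linear intensity values with a detection p-value per probe, both as deposited and per the file headers; no source used here gives scanner software or a background step. The authors' deposited normalized intensity table served as an alternative and to read off the normalization sets, and the series value table equals it (largest difference 0). No reads lie behind these values, and the number of arrays limits precision: over all tested probes a difference had a median SE of 0.16, and its 95% interval reached 0.35 to either side at the median.

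The deposited intensities were background-corrected, quantile-normalized and taken to log2 by the neqc function (R 4.3.3, limma 3.58.1), with background inferred from detection p and an offset of 16. Probes with a detection p below 0.05 on at least 4 of 8 arrays were tested, 10212 in all. Symbols came from the platform annotation: 13793 probes had 1 symbol and 8730 had none. The brightest tested probe stood for a gene. The group difference came from limma (lmFit, eBayes) with no covariate, with Benjamini-Hochberg adjustment over all tested probes; the code was tested on simulated data. The set test added normalization set and its interaction. Replicates were taken as separate rats, from the design text.

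Deviations from the group mean correlated between same-numbered control and treated arrays at 0.237, 0.471, 0.122 and 0.425, all above 0.1. Correlations between arrays of different numbers are not given, so these values do not show that the numbers pair the arrays. The labels give no pairing either. The main fit was unpaired, and the fit with the number as a block is an alternative. The slow-fibre genes, the lists and the tests were chosen with earlier results of these data known. Named genes are all 9 members, the 3 genes with the smallest p of each list of slow, fast, regulator and heart genes with the fast counterparts, and the 10 most and 5 least alike genes; Mb, Fabp3, the heart genes and the markers named besides were chosen for description after their values were seen. Alternatives covered background, scaling, filters, array weights, variance trend, blocks, sets and leaving out each array.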

Additional observations from a re-analysis of the deposited data

Results flagged for a closer look

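In groups of 4, a single array was set apart where its gap to the nearest other array, as a share of the group's range, was above Dixon's 95% critical value. This held for 5 of the 18 combinations of gene and group. The critical value flags about 1 group in 20 for independent normal values, and the share over all probes of the array was not taken. The count is therefore not shown to be unusual for these arrays. The genes vary together, so these are not separate events. In the controls, replicate 1 stood low for Myh7 (12.76 against 14.69 in the next control). In the treated group, replicate 1 stood high for Tnni1 (10.23 against 7.62), Myl2 (7.83 against 6.16), Atp2a2 (14.24 against 12.61) and Myoz2 (13.53 against 12.67). For Myh7 the treated replicate 1 fell just short, with a gap of 0.819 of the range.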

How the results depend on the processing

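Across 21 alternative settings per gene, 0 of the 9 slow-fibre genes passed the test in any, nor did any probe of the array, with limma throughout. Myh7, Tnnt1, Tnnc1, Tnni1, Tpm3 and Atp2a2 kept a lower treated mean in all 21. The alternative detection filters, the variance trend and the blocks by replicate number and set gave the same differences as the main fit. Those settings changed only the SE and the p, so they are no check on direction. The smallest adjusted p among the 9 genes (limma) was 0.127, within set 2. Within set 1 the differences of Myl2, Myl3 and Myoz2 turned to 0.00203, 0.657 and 0.305, and leaving out 1 array at a time that of Myl3 ran from -0.822 to 0.206, the latter without compound 177 replicate 3. With the replicate number as a block no call changed, and 0 probes passed. The smallest adjusted p of the 9 genes (limma) was 0.744, and 657 instead of 396 probes had an unadjusted p below 0.05. That number was 126 with median scaling, 954 without a filter on detection, and 255 without control replicate 3. The median of the 9 genes was -0.22 within set 1 and -2.06 within set 2, against -1.13 over all arrays. The median of the fibre-type regulators was -0.047 with median scaling and -0.031 within set 2. Leaving out 1 array at a time, the median of the fast-fibre genes ran from -0.069 to 0.010 that of the regulators from -0.135 to -0.058 and that of the other slow-fibre genes from -0.173 to 0.0694. The robust background option has no effect when the background comes from detection p and was not run; normexp on the intensities alone (offset 50), added after seeing the data, gave a median of -1.12 for the 9 genes. Signal close to background limits the size of the Myl2 difference; a limit set by the top of the intensity scale on the fast-fibre genes was not tested.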
